A study of Mus musculus with 7 samples.

Results

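The reactive astrocyte genes described here were Gfap, Vim, Serpina3n, Osmr, Cp, Cd44, Steap4, S1pr3, Lcn2 and Aspg, which are 10 of the genes commonly grouped as markers of reactive astrocytes in mouse brain injury. They were found by their symbols, and all 10 are among the 32285 genes of the nucleus-by-gene matrices. The matrices hold unique molecular identifier (UMI) counts from single nuclei of 7 libraries, made from fresh-frozen subcortex, thalamus and hippocampus. Of these, 4 libraries came from mice given ANGPT2 AAV (a male and a female in batch 1, and a male and a female in batch 2), an adeno-associated virus named for angiopoietin-2, a protein that vessels secrete and that acts on the TIE2 receptor of endothelium. The other 3 came from mice given Control AAV (a male and a female in batch 1, and a male in batch 2). Every mouse was hemizygous for the 5xFAD transgenes (5xFAD +/-), so the control mice carry the amyloid model too, and there was no group without the transgenes. In this model the transgenes are driven by the neuronal Thy1 promoter. The virus was given behind the eye at 4 months of age and the brains were taken at 6 months. The promoter, capsid and species of the ANGPT2 insert are not given in the sources used here, nor is it said whether a library holds 1 animal or several, so the p-values below measure the spread between libraries.

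Astrocytes respond to injury, inflammation and amyloid plaques by enlarging their intermediate filament network and by switching on genes for secreted proteins and cytokine receptors. Gfap and vimentin build the filaments, and oncostatin M and related cytokines act through the OSMR and gp130 receptor chains on the transcription factor STAT3, which is known to drive Gfap. Several of these genes are also used by cells of the vessel wall and the ventricle lining, where vimentin, ceruloplasmin and the receptors are part of the normal state.

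The promoters of the 3 genes with the most familiar astrocyte role are shown because their values stood together in single libraries below. Each line gives 250 bases before and 50 bases from the start site (RefSeq, GRCm38.p6), on the gene's own strand from 5′ to 3′. Gfap lies at chr11:102897151-102897450 on the minus strand, Vim at chr2:13574061-13574360 on the plus strand and Serpina3n at chr12:104406458-104406757 on the plus strand. The Gfap and Vim windows lie wholly inside the gene spans given further below, so positions from the start site hold for the RefSeq start used here only. Capitals mark a match to the STAT-type motif TTCNNNGAA, which reads the same on both strands.
Gfap: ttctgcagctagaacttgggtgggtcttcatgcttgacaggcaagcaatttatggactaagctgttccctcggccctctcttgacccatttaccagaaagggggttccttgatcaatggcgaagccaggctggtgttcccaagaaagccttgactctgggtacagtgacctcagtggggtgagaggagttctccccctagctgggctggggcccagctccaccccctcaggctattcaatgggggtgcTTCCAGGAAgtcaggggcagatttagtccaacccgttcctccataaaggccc
Vim: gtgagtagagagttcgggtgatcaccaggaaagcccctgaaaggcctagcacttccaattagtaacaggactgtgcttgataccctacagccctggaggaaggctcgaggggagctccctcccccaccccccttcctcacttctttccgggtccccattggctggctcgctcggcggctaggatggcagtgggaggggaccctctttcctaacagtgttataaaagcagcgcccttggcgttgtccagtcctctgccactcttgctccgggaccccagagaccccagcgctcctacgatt
Serpina3n: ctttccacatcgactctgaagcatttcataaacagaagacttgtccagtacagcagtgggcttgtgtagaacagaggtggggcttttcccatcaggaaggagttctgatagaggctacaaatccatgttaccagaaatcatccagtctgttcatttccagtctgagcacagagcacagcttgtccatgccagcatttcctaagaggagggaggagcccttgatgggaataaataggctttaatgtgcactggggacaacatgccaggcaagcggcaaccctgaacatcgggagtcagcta
The motif was found in 2726 of 32851 promoters of this length (8.30%). Among the 11 promoters listed for the 10 genes it was found in Gfap, where its first base stands at -2 from the start site, and in Steap4, at -116. A match is a run of letters and not a measured binding site.

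The libraries held 58286 nucleus barcodes with 25466033 to 100529717 UMIs each, and the 3 libraries of batch 2 were the shallowest. After filters on genes, mitochondrial UMIs and doublets, 54230 nuclei remained. Clusters were named from marker genes as astrocyte-like, oligodendrocyte-like and so on, and the suffix is dropped in what follows. None of the 10 genes was used for clustering. The astrocyte class held 2986 nuclei, 219 to 658 per library, with the defining markers present throughout: Aqp4 stood at 188 to 352 CPM (UMIs of the gene per 1000000 UMIs of the class in a library), against 1.55 to 5.94 CPM in excitatory neurons. Libraries differed in makeup: medium spiny neurons, the main neurons of the striatum, were 3.59% to 33.1% of kept nuclei in ANGPT2 AAV libraries and 0.0953% to 19.6% in Control AAV libraries. Another 10014 nuclei fell in unnamed clusters. The mouse gene Angpt2 stood at 2.20 to 4.77 CPM of whole libraries in the ANGPT2 AAV group and at 3.79 to 4.34 CPM in the Control AAV group, so the treatment label has no check in these counts, which need not include the vector's transcript. The control female of batch 1 stood apart from the other 6 libraries for the genes described here, so results that rest on it are given with and without it.

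Across the 12 classes with at least 10 nuclei in 6 or more libraries, Gfap and Serpina3n had their highest mean in astrocytes, Vim in endothelial cells, Osmr and S1pr3 in mural cells (pericytes and smooth muscle of vessels), and Cp in fibroblasts. Astrocytes also had the highest mean of Cd44 and Aspg over all 7 libraries, but without the control female of batch 1 ependymal cells ranked first for Cd44 and fibroblasts for Aspg. Lcn2 and Steap4 were almost absent. These levels describe the genes, which were listed for an astrocyte role, and carry no test.

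Gfap, the type III filament protein of astrocytes (chr11:102887336-102900912, minus strand, GRCm38, GENCODE M21), averaged 327 ± 278 CPM in astrocytes (SD, n = 7 libraries, range 146 to 930.3). The next classes were ependymal cells at 65.1 ± 64.9 CPM, mural cells at 62.9 ± 51.0 CPM and endothelial cells at 58.2 ± 69.9 CPM. The range of ependymal cells, 15.4 to 207 CPM, reached into that of astrocytes, and those 3 lower classes did not differ beyond their spread. Without the control female of batch 1, Gfap averaged 226 ± 86.7 CPM in astrocytes and 41.4 ± 18.2 CPM in ependymal cells (n = 6), 48.6 CPM in mural cells and 34.4 CPM in endothelial cells, and the ependymal range ended at 72.3 CPM, below every astrocyte value. Astrocytes held 34.6% of all Gfap UMIs and 2.36% of all UMIs. Gfap was read at low level in every class, down to 1.55 to 16.3 CPM in excitatory neurons. In each library astrocytes were 23.1 to 103 times above excitatory neurons, a class that should lack Gfap. The part of free RNA in the levels outside astrocytes was not tested.

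Vim, the filament protein vimentin (chr2:13573927-13582826, plus strand), averaged 373 ± 188 CPM in endothelial cells and 192 ± 76.0 CPM in ependymal cells (SD, n = 7). Astrocytes at 49.1 ± 65.5 CPM and fibroblasts at 47.1 ± 29.6 CPM followed and did not differ beyond their spread. Leaving out the control female of batch 1, the Vim mean was 24.6 ± 10.1 CPM in astrocytes, below fibroblasts at 46.5 ± 32.4 CPM and mural cells at 27.9 ± 32.9 CPM (SD, n = 6), and these overlapped. Astrocytes held 334 Vim UMIs and the 497 endothelial nuclei 333, and without that library they held 169 and 263.

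Among the secreted proteins, the protease inhibitor Serpina3n (chr12:104406729-104414329, plus strand) averaged 18.8 ± 22.0 CPM in astrocytes and 12.5 ± 16.8 CPM in oligodendrocytes, which overlapped (SD, n = 7). Serpina3n averaged, without the control female of batch 1, 11.3 ± 9.95 CPM in astrocytes and 6.19 ± 2.22 CPM in oligodendrocytes (n = 6). Excitatory neurons held 26.6% of its UMIs, oligodendrocytes 23.1%, unnamed clusters 23.1% and astrocytes 10.8%. Of all UMIs these classes held 50.6%, 5.82%, 16.5% and 2.36% in the same order. Without the control female of batch 1, excitatory neurons held 30.6% of Serpina3n UMIs and oligodendrocytes 19.7%. Serpina3n belongs to a cluster of related genes, and Serpina3g, Serpina3m and Serpina3i had 43, 39 and 19 UMIs in all libraries against 1169 of Serpina3n. Reads that fit several copies may make its level uncertain, which was not tested. Cp, which encodes the copper-carrying ferroxidase ceruloplasmin (chr3:19957054-20009145, plus strand), averaged 1075 ± 691 CPM in fibroblasts, 359 ± 131 CPM in mural cells and 192 ± 91.0 CPM in endothelial cells. Oligodendrocyte precursor cells (OPC) followed at 98.3 ± 11.04 CPM, with all 7 libraries between 81.0 and 112 CPM, the tightest spread of Cp among its 5 highest classes. In astrocytes Cp had 23 UMIs in all. Cp overlaps Hps3 on the other strand, and whether the counting used the strand is not given in the sources used here. Lcn2 (chr2:32384633-32388252, minus strand), the iron-scavenging protein lipocalin-2, had 7 UMIs among 347289808, and 0 of 2986 astrocyte nuclei had one. That allows a share of up to 0.100% of nuclei with an Lcn2 UMI at this depth, which is no limit on the share of nuclei that express the gene.

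Among the receptors, Osmr, the oncostatin M receptor chain (chr15:6813577-6874969, minus strand), averaged 172 ± 86.4 CPM in mural cells, 143 ± 42.5 CPM in endothelial cells, 55.5 ± 49.2 CPM in fibroblasts and 30.6 ± 24.4 CPM in astrocytes. Mural and endothelial levels overlapped, and every other class averaged 0.994 CPM or less. S1pr3, a receptor for sphingosine 1-phosphate (chr13:51408639-51422797, plus strand, with Gm32834 on the other strand), averaged 136 ± 119 CPM in mural cells on only 36 UMIs. It was at 20.1 ± 23.3 CPM in ependymal cells, 14.6 ± 13.01 CPM in endothelial cells and 8.44 ± 11.98 CPM in astrocytes, which overlapped, and its astrocyte mean was 4.11 ± 3.80 CPM without the control female of batch 1. Cd44, the hyaluronan receptor (chr2:102811141-102901665, minus strand), averaged 32.9 ± 30.4 CPM in astrocytes and 29.1 ± 21.0 CPM in ependymal cells. Without the control female of batch 1 the Cd44 means were 22.3 ± 13.1 CPM in astrocytes and 25.5 ± 20.6 CPM in ependymal cells, so their order turned on that library. Excitatory neurons, at 3.22 ± 1.55 CPM, held 44.0% of Cd44 UMIs and 50.6% of all UMIs, and 51.0% of both without that library. Lymphocytes, with 55 nuclei in all, were outside the 12 classes ranked. Only 2 libraries had at least 10 of them. Their Cd44 was at 91.1 CPM on 3 UMIs in the control male of batch 1 and at 236 CPM on 8 UMIs in the control female of batch 1.

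Of the enzymes, Aspg, an asparaginase (chr12:112106679-112127559, plus strand), averaged 12.2 ± 6.82 CPM in astrocytes and 11.9 ± 14.4 CPM in fibroblasts, and without the control female of batch 1 it averaged 11.5 ± 7.15 CPM in astrocytes and 12.5 ± 15.7 CPM in fibroblasts. Excitatory neurons were at 1.37 ± 1.57 CPM and held 62.2% of Aspg UMIs and 50.6% of all UMIs. Without that library they were at 0.788 ± 0.346 CPM and held 48.4% of Aspg UMIs and 51.0% of all UMIs. Steap4, a metalloreductase (chr5:7960457-7982213, plus strand), had 12 UMIs in all libraries, 3 of them in mural cells and 0 in astrocytes, with the same limit of 0.100% on astrocyte nuclei with a UMI as for Lcn2. The floor of 3 counts over the 8194551 astrocyte UMIs is 0.366 CPM and covers counting error only.

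**Figure D1:**
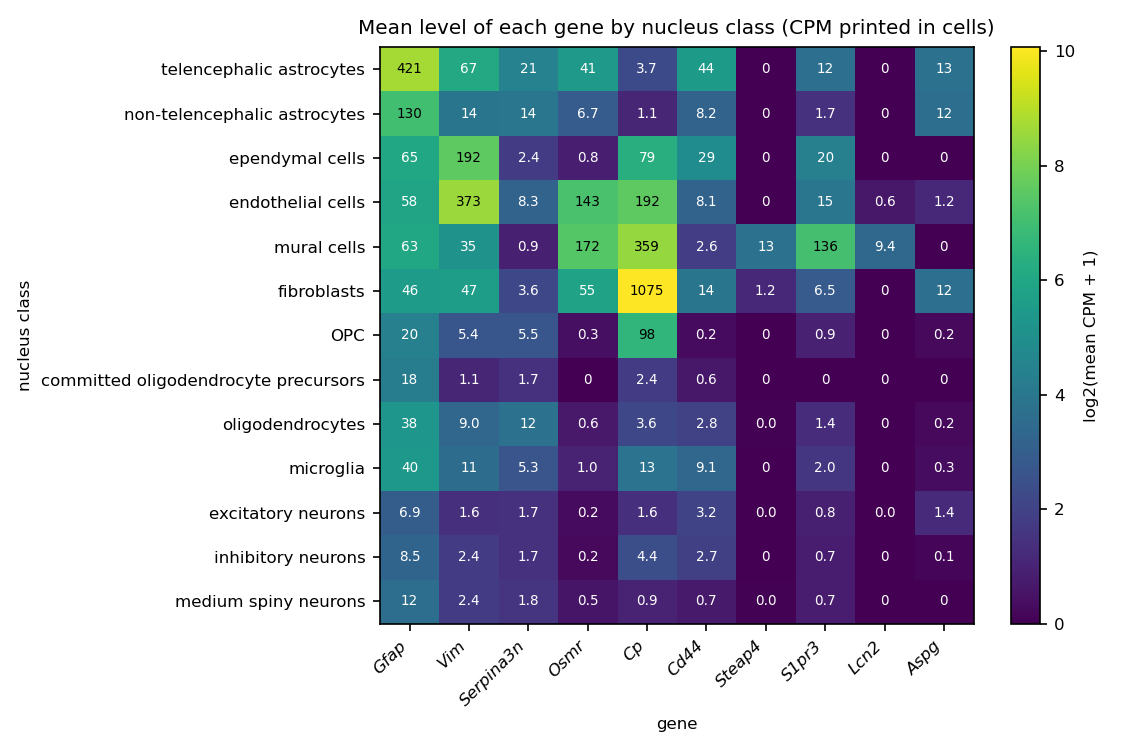
Mean level of each gene (columns) in each nucleus class (rows) over the libraries, as colour on the log2(mean CPM + 1) scale with the mean CPM printed in each cell, and with astrocytes split into telencephalic and non-telencephalic. Gfap has its highest mean in telencephalic astrocytes, Vim in endothelial cells (373 CPM), Cp in fibroblasts (1075 CPM), and Osmr and S1pr3 in mural cells (172 and 136 CPM).

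The genes whose levels over 16 classes and astrocyte subclasses were most like Gfap were Gja1, the gap junction protein connexin 43 (Pearson r = 0.925 on log2 class means), Rrp8 (r = 0.925) and Slc9a3r1 (r = 0.914), out of 15987 genes compared. For Vim they were Ahnak (r = 0.920), mt-Atp6 (r = 0.917) and mt-Nd4 (r = 0.909), and for Serpina3n they were Tmc7 (r = 0.862), Fgfbp3 (r = 0.822) and Zfp383 (r = 0.813). These correlations are over classes that share libraries, and mitochondrial transcripts such as mt-Atp6 come from outside the nucleus.

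In astrocytes, 6 of the 10 genes had enough UMIs for a test, and none of the 6 differed between ANGPT2 AAV and Control AAV beyond the spread of the libraries. Each had a lower fitted mean with ANGPT2 AAV, and for each the 2 groups overlapped. The control mean was raised by a single library: the control female of batch 1 had the highest level of Gfap, Vim, Serpina3n, Osmr and Cd44 among the 7. Without it, 5 of the 6 differences were above 0. Values below are given for the male and female of batch 1 and then the male and female of batch 2 for ANGPT2 AAV, and for the male and female of batch 1 and the male of batch 2 for Control AAV.

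Gfap stood at 233, 157, 160.2 and 327 CPM in ANGPT2 AAV astrocytes, against 146, 930.3 and 334 CPM in Control AAV astrocytes. The lowest library was a control male and the highest the control female, and all 4 ANGPT2 AAV libraries fell between the control values. The mean was 219 ± 80.1 CPM with ANGPT2 AAV (SD, n = 4) and 470.2 ± 409 CPM with Control AAV (SD, n = 3). The log2 change was -1.002 (SE 0.46), with an unadjusted p of 0.0480 and an adjusted p of 0.997 by edgeR's quasi-likelihood test. Once the control female of batch 1 was left out, the change was 0.01 (SE 0.33).

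Vim was at 26.7, 19.4, 22.4 and 43.5 CPM in ANGPT2 AAV astrocytes, against 14.3, 196 and 21.2 CPM in Control AAV astrocytes. The control female was 4.51 times the next highest library, and the other 2 controls lay below 3 of the 4 ANGPT2 AAV libraries. The log2 change was -1.34 (SE 0.70, adjusted p = 0.997, edgeR), and without the control female it was 0.78 (SE 0.37, unadjusted p = 0.0565). Its sign therefore depended on 1 library.

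Serpina3n was at 3.81, 9.14, 3.73 and 28.6 CPM in ANGPT2 AAV astrocytes, against 4.96, 64.2 and 17.5 CPM in Control AAV astrocytes, from 126 UMIs in all. Its highest level within each group was in a female library, and the groups overlapped over most of their range. Serpina3n had a log2 change of -1.19 (SE 0.77) with all libraries and 0.27 (SE 0.73) without the control female.

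Osmr was at 14.6, 12, 18.6 and 43.5 CPM in ANGPT2 AAV astrocytes, against 5.51, 72.5 and 47.4 CPM in Control AAV astrocytes. Here the control male of batch 2 was also above every ANGPT2 AAV library, while the control male of batch 1 was the lowest of all. For Osmr the log2 change was -0.79 (SE 0.65) with all libraries and 0.02 (SE 0.66) without the control female.

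Cd44 was at 17.8, 8.57, 37.3 and 37.7 CPM in ANGPT2 AAV astrocytes, against 8.81, 96.2 and 23.7 CPM in Control AAV astrocytes. Both ANGPT2 AAV libraries of batch 2 exceeded the control male of that batch. Across all libraries the log2 change was -0.74 (SE 0.68), and it was 0.73 (SE 0.58) without the control female.

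Aspg was at 5.72, 12.6, 7.45 and 11.4 CPM in ANGPT2 AAV astrocytes, against 6.61, 16.6 and 24.9 CPM in Control AAV astrocytes. It was the exception among the 6, with its highest value in the control male of batch 2. Aspg had a log2 change of -0.55 (SE 0.45) with all libraries and -0.44 (SE 0.51) without the control female.

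S1pr3 and Cp had too few UMIs in astrocytes for the test. S1pr3 had 1, 2, 3 and 7 UMIs in the ANGPT2 AAV libraries, against 1, 29 and 7 in the Control AAV libraries, so more than all the other libraries together came from the control female. Cp had 3, 6, 0 and 2 UMIs with ANGPT2 AAV, against 2, 6 and 4 with Control AAV, and showed no such excess in UMIs. In CPM the control female was the highest for Cp, at 7.13 CPM against 4.99 CPM or less in the other libraries. Steap4 and Lcn2 had none.

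**Figure D2:**
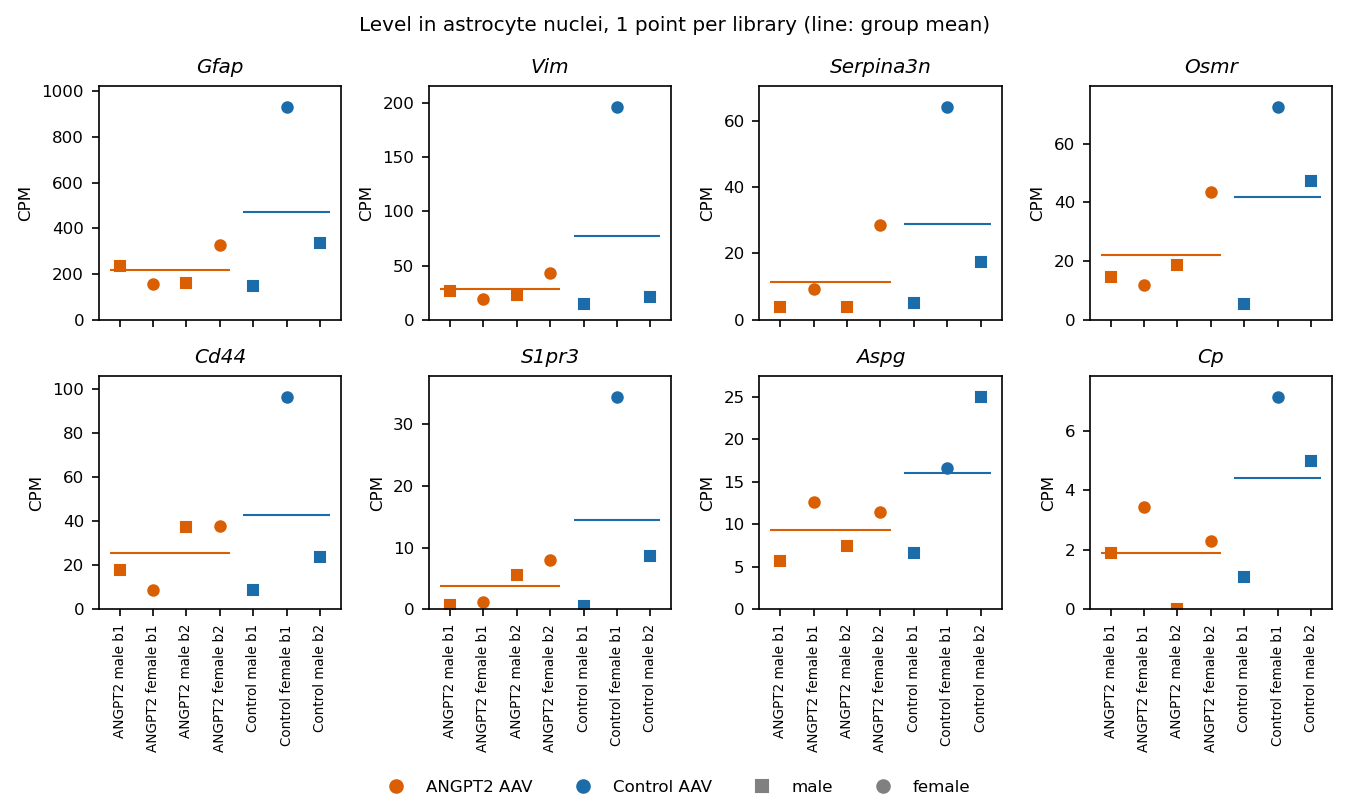
Level of 8 genes (CPM) in the astrocytes of each library, ANGPT2 AAV left of Control AAV, with squares for males, circles for females and a line at each group mean. The control female of batch 1 is the top point for Gfap (930.3 CPM), Vim (196 CPM), Serpina3n, Osmr, Cd44, S1pr3 and Cp, and not for Aspg.

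Over all genes, edgeR tested 9584 in astrocytes and called 0 (0% at an adjusted p under 0.05), with 314 (3.28%) at an unadjusted p under 0.05, and DESeq2 also called 0. Of the 6 members tested, 0 were called and 1, Gfap, had an unadjusted p under 0.05. All 6 had a log2 change below 0, against 49.9% of all genes tested, with a median of -0.89 against 0.00 over all genes. Without the control female of batch 1 the members' median was 0.14 against 0.01 over all genes. With no filter on low counts, edgeR called 47 of 20819 genes, among them Vim (adjusted p = 1.73e-05) and Gfap (adjusted p = 7.99e-05). Their log2 changes of -1.32 and -0.98 rest on the same libraries. The SE was 0.23 for Vim and 0.18 for Gfap there, against 0.70 and 0.46 with the filter, at nearly the same changes. The cause of the smaller SE was not tested, and no fit with no filter was made without the control female. No member had every ANGPT2 AAV library below every control, which held for 3.93% of all genes. The control female of batch 1 was the highest library for 5 of the 6 members and for 19.9% of all genes, and at least 2 times the next highest library for 4 of the 6 members and for 0.605% of all genes.

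Within batches the differences of group means on the log2(CPM + 1) scale did not share one sign for every gene. In batch 1, which holds the control female, ANGPT2 AAV minus control was -0.95 for Gfap, -1.21 for Vim, -1.50 for Serpina3n, -0.62 for Osmr, -1.20 for Cd44 and -0.28 for Aspg. In batch 2, with a single control male, it was -0.54 for Gfap, 0.54 for Vim, -0.64 for Serpina3n, -0.71 for Osmr, 0.64 for Cd44 and -1.34 for Aspg. The median of all genes was 0.00 in batch 1 and -0.18 in batch 2. With the control female counted, Gfap, Serpina3n, Osmr and Aspg were thus lower with ANGPT2 AAV in both batches. Vim and Cd44 were lower in batch 1 and higher in batch 2. Against the control male of batch 1 alone, both ANGPT2 AAV libraries of that batch were higher for Gfap, Vim and Osmr. The lower batch 1 values of these genes therefore rest on the control female. For Serpina3n and Aspg the ANGPT2 AAV female of batch 1 was above that control male and the ANGPT2 AAV male below. For Cd44 the reverse held.

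**Figure D3:**
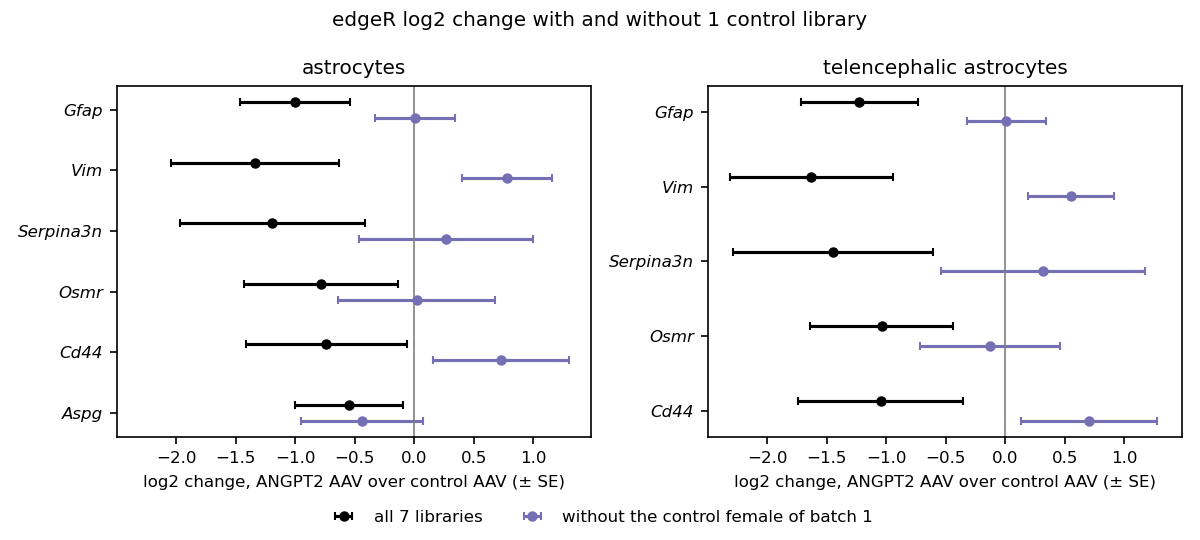
Fitted log2 change, ANGPT2 AAV over Control AAV (horizontal axis, bars ± SE), for each tested gene in all astrocytes and in telencephalic astrocytes, with all 7 libraries and without the control female of batch 1. Gfap moves between -1.002 and 0.01 and Vim between -1.34 and 0.78 in astrocytes when that library is left out.

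The difference between the sexes in the response could only be fitted with 1 control female. The treatment-by-sex interaction had 0 of 9584 genes called by edgeR, with 269 at an unadjusted p under 0.05. Its log2 value was -3.31 for Vim (SE 0.60, adjusted p = 0.550), -3.00 for Cd44 (SE 0.97, adjusted p = 1.00) and -1.72 for Gfap (SE 0.63, adjusted p = 1.00). Sex and the individual control female cannot be told apart in these values.

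Astrocytes of the telencephalon (2034 nuclei, with the transcription factor Lhx2 among their markers) and of other regions (952 nuclei) were then read apart. Gfap was higher in telencephalic astrocytes in 7 of 7 libraries, with a median log2 ratio of 1.30, and so were Vim (1.65) and Osmr (2.06). Cd44 was higher in 6 of 7 libraries, and Serpina3n and Aspg in 4 of 7. These clusters share libraries and were split on expression, so the counts are descriptions.

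In telencephalic astrocytes Gfap was at 302, 177.5, 177.1 and 371 CPM with ANGPT2 AAV, against 168, 1369.7 and 382 CPM with Control AAV. The gap of the control female to the other libraries was therefore wider here than in all astrocytes, and Vim followed the same pattern with 35.6, 23.2, 25 and 48.5 CPM against 20.8, 291 and 26.6 CPM. The log2 change was -1.23 for Gfap (SE 0.49) and -1.63 for Vim (SE 0.68), both with an adjusted p of 0.997 by edgeR, and 0.01 and 0.55 without the control female. Of 8806 genes, 0 (0%) were called and 264 (3%) had an unadjusted p under 0.05, and of the 5 members tested 0 were called and 2 had such a p. All 5 had a log2 change below 0, against 49.5% of all genes, and 0 of the 5 had every ANGPT2 AAV library below every control, which held for 3.45% of all genes. The control female was highest for 5 of those 5 members and for 21.3% of all genes, and at least 2 times the next highest library for 5 of 5 and for 0.806% of all genes.

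In astrocytes outside the telencephalon Gfap was at 108, 104, 17.6 and 150.3 CPM with ANGPT2 AAV, against 124, 213 and 190.4 CPM with Control AAV. The lowest value came from the ANGPT2 AAV male of batch 2, which had 31 such nuclei, and the control female was only 1.12 times the next library. Its log2 change there was -0.62 (SE 0.27), and -0.41 (SE 0.29) without the control female. Its adjusted p was 1.00 by edgeR, with 0 of 5823 genes called and 204 at an unadjusted p under 0.05 (3.5%).

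The share of astrocyte nuclei with a Gfap UMI was compared after each nucleus was thinned to 1000 UMIs, because median depth ran from 1163.5 to 4388.5 UMIs. This left out 90 shallower nuclei of ANGPT2 AAV and 227 of Control AAV. The loss was uneven: 435 of 658 nuclei remained in the control male of batch 2. In the male and female controls of batch 1, 408 of 410 and 217 of 219 remained. The share was 13.02%, 8.49%, 11.4% and 18.9% with ANGPT2 AAV, against 10.3%, 34.1% and 18.6% with Control AAV. Unthinned, it was 25.5%, 23.5%, 13.9% and 23.8% against 24.4%, 53.9% and 20.5%. In excitatory neurons, with median depths of 3760.0 to 16589.5 UMIs, the thinned share was 0.114% to 1.83%.

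The thinned Gfap share averaged 12.96 ± 4.38% with ANGPT2 AAV (n = 4) and 21.0 ± 12.1% with Control AAV (n = 3), a difference of -8.05 percentage points with p = 0.314 by a two-sided exact permutation test, adjusted p = 0.549 over 8 genes. With 4 libraries against 3 the smallest p of this test is 0.0286. Without the control female the difference was -1.50 points. Vim averaged 2.30 ± 1.59% and 4.04 ± 3.7% (exact permutation p = 0.571), and the 8 genes tested all had an adjusted p of 0.549 or more.

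**Figure D4:**
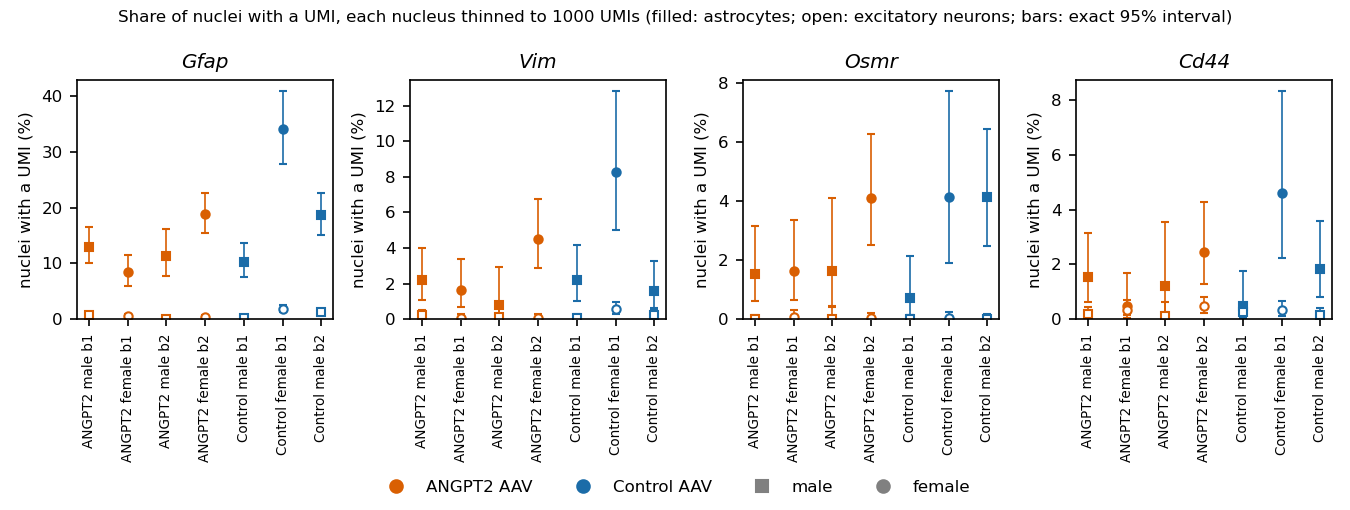
Percent of nuclei with a UMI of Gfap, Vim, Osmr and Cd44 after thinning to 1000 UMIs per nucleus, by library, ANGPT2 AAV left of Control AAV, with filled symbols for astrocytes, open symbols for excitatory neurons and bars for the exact 95% binomial interval, which covers counting error only. For Gfap the control female of batch 1 reaches 34.1%, and the other 6 libraries lie between 8.49% and 18.9%.

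Nuclei with 5 or more Gfap UMIs were 5.68%, 3.52%, 1.59% and 2.13% of astrocytes with ANGPT2 AAV, against 4.63%, 18.7% and 0.912% with Control AAV, before thinning. The largest count in a single nucleus, 47, was also in the control female of batch 1.

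Pooled over libraries and over both astrocyte subclasses, Gfap was read in a larger share of the astrocytes that had a UMI of another member. Among 2669 thinned astrocytes, Gfap was present in 50.7% of the 75 nuclei with a Vim UMI and in 14.4% of those without. The shares were 73.9% of 23 nuclei with Serpina3n, 57.4% of 68 with Osmr, 54.5% of 44 with Cd44 and 53.1% of 32 with Aspg, against 14.3% to 15.0% of nuclei without the gene. Leaving out the control female gave 43.9% with Vim, 77.8% with Serpina3n, 50.8% with Osmr, 47.1% with Cd44 and 51.7% with Aspg. For Aspg the control male of batch 1 had Gfap in 0 of 3 nuclei, against 10.4% of those without Aspg. The ANGPT2 AAV male of batch 2 had it in 0 of 2, against 11.5%, and every other library had the higher share with Aspg. The part of the subclasses in these shares was not tested. Nuclei with UMIs of 2 or more of the 10 genes were 2.21%, 2.83%, 2.04% and 6.78% with ANGPT2 AAV, against 1.47%, 14.3% and 5.06% with Control AAV. Cells are not replicates, so no test was made of these shares.

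Genes that act with the members were read from fixed lists in the same astrocyte fit, and none was called in it. Of the 3 other genes of the shared reactive set (Timp1, Hspb1 and Cxcl10), 0 had enough UMIs, and the heat shock gene Hspb1 stood at 0 to 1.86 CPM in the ANGPT2 AAV libraries and at 1.65, 17.8 and 0 CPM in the Control AAV libraries. Of the 12 genes once listed for the inflammatory A1 state, 4 were tested and all 4 had values below 0, led by the glucocorticoid target Fkbp5 (log2 change -2.10, unadjusted p = 0.016) and the MHC class I gene H2-D1 (-1.21). Fkbp5 was at 28.6, 75.4, 9.31 and 17.2 CPM with ANGPT2 AAV, against 69.9, 416 and 12.5 CPM with Control AAV, so the control female was again the highest. Fkbp5 was called by edgeR once batch and sex were both in the model, in astrocytes (log2 change -1.90, SE 0.24, adjusted p = 0.00587) and in telencephalic astrocytes (-2.15, adjusted p = 0.00314). That model was not fitted without the control female. Outside that library the groups overlapped, at 9.31 to 75.4 CPM with ANGPT2 AAV against 69.9 and 12.5 CPM in the control males. With no filter on low counts Fkbp5 (adjusted p = 5.11e-22) and the A2 gene Cd109 (adjusted p = 5.33e-10) were the list genes called in astrocytes by edgeR. The SE of Fkbp5 was 0.20 there, against 0.77 with the filter. Cd109 had 103 CPM in the control female and 5.08 CPM or less in the other libraries.

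Of the 13 genes listed for the A2 state only Stat3 was tested, with a log2 change of -0.50. Of the 12 A2 genes detected, the control female was highest for 10, against 18.8% of all genes detected in astrocytes, among them the prostaglandin synthase Ptgs2 at 1.27, 2.86, 0 and 2.29 CPM with ANGPT2 AAV, against 2.75, 24.9 and 1.25 CPM with Control AAV. The gp130 and STAT3 list had 7 genes tested, 5 of them below 0, with Stat3 and the LIF receptor gene Lifr (-0.26) at the smallest p.

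The 14 homeostatic astrocyte genes gave 7 values below 0 and 7 above, with a median of -0.02. Gpc5, a cell-surface proteoglycan, was at 0.38 and the potassium channel Kcnj16 at -0.37, and the control female was highest for 3 of the 14, against 19.9% of all genes tested. The 11 genes known from astrocytes near plaques gave 10 values below 0, with a median of -0.29, and the cathepsins Ctsb (-0.32) and Ctsl (-0.37) had the smallest p. The control female was highest for 8 of these 11.

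Of the sphingosine 1-phosphate genes 4 were tested, 2 in each direction, with S1pr1 at 0.21 and Sgpp1 at -0.27. Of 7 iron and copper genes 5 were below 0, with transferrin (Trf) at -0.45 and the ferroxidase Heph at -0.33. The filament partners gave 1 value below 0 and 2 above, with the neurofilament Nefl at 0.54 and plectin (Plec) at -0.08, and Slc22a17, a lipocalin-2 receptor, was at -0.19.

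Markers of other cell types were present at low level in the astrocyte sums. The 5 OPC markers summed to 96.9 to 125 CPM in the ANGPT2 AAV libraries and 115 to 209 CPM in the Control AAV libraries, with the highest sum in the control female of batch 1. The same library had the highest sums of the 8 microglial markers (87.7 to 127 CPM with ANGPT2 AAV, 122 to 139 CPM with Control AAV) and of the 6 medium spiny neuron markers (288 to 503 CPM with ANGPT2 AAV, 415 to 588 CPM with Control AAV). These were the only lists of other cell types in which it was highest. It was not the highest for the 7 oligodendrocyte markers (544 to 1005 CPM with ANGPT2 AAV, 686 to 871 CPM with Control AAV). Nor was it for the 6 excitatory neuron markers, at 611 CPM against up to 782 CPM in the other libraries. The 5 thalamic neuron markers (762 against up to 800 CPM) and the 6 choroid plexus markers (343 against up to 1034 CPM) were likewise higher elsewhere. In the lists with values given here no marker was at 0. The 9 astrocyte markers summed to 24739 to 32299 CPM with ANGPT2 AAV and 23913 to 25473 CPM with Control AAV. The part of these markers in the Gfap and Vim values was not tested.

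The control female of batch 1 was high for Gfap and Serpina3n outside astrocytes too. With astrocytes counted among the classes, Gfap was highest in it in 12 of 12, and Serpina3n in 10 of 12. Some of these Serpina3n values rest on few UMIs, 3 in all in ependymal cells and 3 in committed oligodendrocyte precursors. The other members were not counted in this way, and Cp in OPC was lowest in this library (81.0 CPM). Of all genes tested, this library was the highest for 13.6% in oligodendrocytes, 13% in OPC and 13.9% in excitatory neurons. In oligodendrocytes Serpina3n was at 5.81, 7.96, 2.93 and 8.45 CPM with ANGPT2 AAV, against 7.68, 50.2 and 4.32 CPM with Control AAV. That value comes from a class with 1 high library and 6 alike, and the log2 change was -1.68 (SE 0.68, adjusted p = 0.998, edgeR) with it and 0.06 (SE 0.39) without it. Background in oligodendrocytes was 0 of 12349 genes called (0%), with 333 at an unadjusted p under 0.05 (2.7%).

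In OPC, Gfap was at 9.43, 15.5, 3.66 and 14.5 CPM with ANGPT2 AAV, against 5.67, 66.0 and 23.3 CPM with Control AAV, a log2 change of -1.33 (SE 0.57, adjusted p = 0.973, edgeR). Once the control female was left out, Gfap had too few UMIs in OPC for the test, and the other 6 libraries lay between 3.66 and 23.3 CPM. Excitatory neurons, where Gfap is not expected, showed the same order of libraries at a lower level, 4.99, 6.78, 1.55 and 5.86 CPM against 3.37, 16.3 and 9.74 CPM. The 2 highest libraries in OPC and in excitatory neurons were thus the control female of batch 1 and the control male of batch 2. In medium spiny neurons, without the control male of batch 1 that had 8 such nuclei, Gfap was at 8.14, 8.45, 6.76 and 6.75 CPM with ANGPT2 AAV, against 26.7 and 12.3 CPM with Control AAV. Both controls were above all 4 ANGPT2 AAV libraries there, as for 7.6% of all genes in that class, with a log2 change of -1.21 (SE 0.34, unadjusted p = 0.00420, adjusted p = 1.00, edgeR), and -0.62 (SE 0.32) without the control female. Of 12666 genes, 0 were called in that class and 2.11% had an unadjusted p under 0.05.

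Aspg in excitatory neurons was at 0.446, 0.848, 1.13 and 0.282 CPM with ANGPT2 AAV, against 0.950, 4.87 and 1.07 CPM with Control AAV. Of 17420 genes in that class, 0 (0%) were called and 3.66% had an unadjusted p under 0.05, and of 7 members 0 were called and Aspg alone had such a p. Of its 260 UMIs there, 151 came from the control female. Its log2 change was -1.91 (SE 0.67, adjusted p = 0.939, edgeR), and -0.54 (SE 0.48) without that library.

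In inhibitory neurons and microglia edgeR called 0 genes, with 5.64% and 3.76% at an unadjusted p under 0.05. DESeq2 called 27 genes in inhibitory neurons, 8 in medium spiny neurons and 0 in each of the other named classes, and no member among them. The log2 change of Gfap was -0.78 (SE 0.53) in inhibitory neurons and -0.75 (SE 0.41) in microglia, and -0.04 and 0.22 without the control female.

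**Figure D5:**
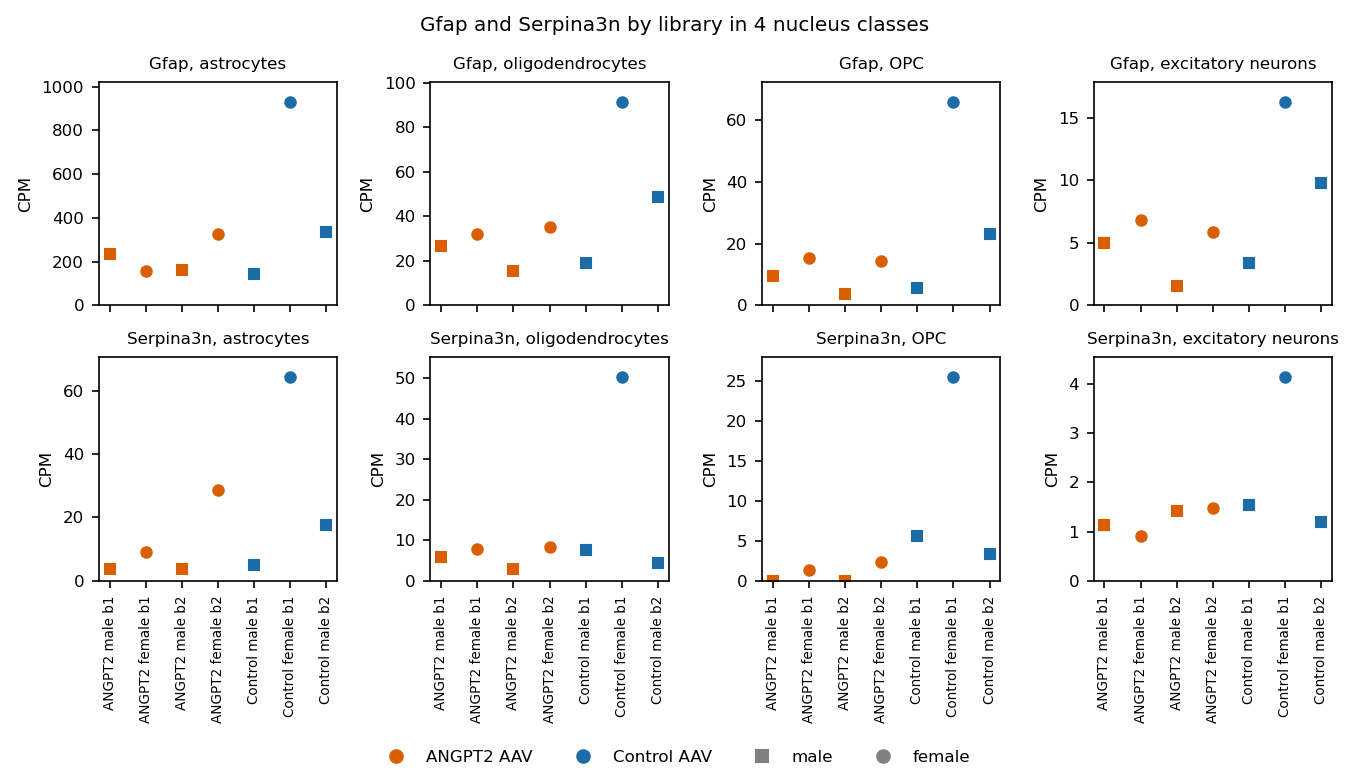
Gfap (top) and Serpina3n (bottom) in astrocytes, oligodendrocytes, OPC and excitatory neurons, in CPM by library, ANGPT2 AAV left of Control AAV, with squares for males and circles for females (each panel has its own scale). The control female of batch 1 is the highest point in all 8 panels, at 50.2 CPM for Serpina3n in oligodendrocytes where the other libraries reach 8.45 CPM.

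In the vessel wall and the ventricle lining, several of these genes were most abundant. Endothelial Vim was at 282, 318, 267 and 694 CPM with ANGPT2 AAV, against 254, 586 and 208 CPM with Control AAV, a log2 change of 0.12 (SE 0.40), and 0.75 (SE 0.45) without the control female of batch 1. Its 2 highest libraries were both female, 1 in each group. Endothelial Osmr was at 145, 118, 124 and 189 CPM with ANGPT2 AAV, against 71.0, 168 and 187 CPM with Control AAV (log2 change 0.08, SE 0.37), and endothelial Cp had a log2 change of -0.44 (SE 0.43), and -0.87 (SE 0.40, unadjusted p = 0.0438, adjusted p = 0.997, edgeR) without that library. In mural cells the log2 change was -0.27 for Cp (SE 0.31) and -0.45 for Osmr (SE 0.50), and in fibroblasts it was 0.42 for Cp (SE 0.49). Ependymal Vim was at 268, 158, 108 and 159 CPM with ANGPT2 AAV, against 109, 291 and 246 CPM with Control AAV (log2 change -0.24, SE 0.34), and without the control female the change was 0.17 (SE 0.40).

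OPC gave the most precise comparison of any member, with Cp at 94.3, 91.6, 95.05 and 104 CPM under ANGPT2 AAV, against 112, 81.0 and 109.8 CPM under Control AAV. All ANGPT2 AAV libraries lay inside the control range, and the log2 change was -0.01 (SE 0.19). In these 5 classes the members tested all had an adjusted p of 0.973 or more by edgeR, and 0 genes were called in any of them, with 2.97% of genes at an unadjusted p under 0.05 in endothelial cells, 2.57% in mural cells, 3.47% in fibroblasts, 3.68% in ependymal cells and 4.57% in OPC.

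In whole libraries, where fewer cells of a type and less RNA per cell cannot be told apart, 8 of the 10 genes were tested and 0 were called. Of 19979 genes, edgeR called 0 (0%) with 575 at an unadjusted p under 0.05 (2.88%), and DESeq2 called 2, neither of them a member. Aspg was at 0.494, 0.918, 0.733 and 0.586 CPM with ANGPT2 AAV, against 0.835, 3.07 and 1.33 CPM with Control AAV. Only the control male of batch 1 fell within the ANGPT2 AAV range, and the log2 change was -1.33 (SE 0.47, adjusted p = 0.997), and -0.50 (SE 0.34) without the control female. Serpina3n was at 1.72, 2.09, 1.29 and 2.86 CPM with ANGPT2 AAV, against 2.34, 9.05 and 2.13 CPM with Control AAV, a log2 change of -1.16 (SE 0.54), and -0.03 (SE 0.33) without the control female. Of the 8, 5 had a log2 change below 0, against 53.9% of all genes, and 0 had every ANGPT2 AAV library below every control, which held for 3.19%. The control female was the highest library for 5 of the 8 and for 12.4% of all genes, and at least 2 times the next for 2 of the 8 and for 0.851%. For the other 6 genes the log2 change lay between -0.69 for Gfap (SE 0.45) and 0.13 for Osmr, and without the control female Gfap was at -0.02 (SE 0.40).

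Astrocytes were 6.41%, 4.82%, 4.20% and 7.24% of kept nuclei with ANGPT2 AAV, against 4.88%, 3.05% and 7.41% with Control AAV. The smallest share was that of the control female of batch 1, the library with the highest Gfap per astrocyte. The group means were 5.67 ± 1.40% and 5.11 ± 2.19%, a difference of 0.553 percentage points (two-sided exact permutation p = 0.686), and -0.48 points without that library.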

How the data were processed

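Single-nucleus libraries were made from frozen brain sections. The deposited files are matrices of raw UMI counts per gene and nucleus, made with Cell Ranger 6.1.2 on mm10 (GRCm38) per the submitters' processing notes. The matrices held 58286 barcodes (1941 sequences, 3.45%, occurred in more than 1 library). Nuclei with at least 300 genes and under 5% mitochondrial UMIs were kept (58169). In each library 5.04% to 7.70% were removed as doublets by comparison with simulated doublets, which left 54230. Nuclei were clustered on 2500 variable genes without the 10 members (leidenalg 0.10.2, 63 clusters), and clusters were named from marker lists.

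For each class, the UMIs of a library were added up and tested with edgeR 4.0.16 (R 4.3.3) quasi-likelihood, TMM factors, the filterByExpr filter, treatment as the term and Benjamini-Hochberg adjustment over all genes of the class at 0.05. The same steps were run on simulated data with a common dispersion and no outlying library, batch or sex effect. That run does not show how the fit handles a library such as the control female of batch 1. DESeq2 1.42.0, other scalings, no filter, batch and sex terms, leaving out each library, kept doublets and other clusterings were alternatives. Libraries with fewer than 10 nuclei of a class were left out of its fit. The labels' batch tag groups the libraries into blocks and does not pair them 1 to 1. Deviations from group means correlated at -0.0157 to 0.248 between treatments within a batch and at -0.254 to 0.0699 across batches, over 9584 genes. These ranges overlapped, but the median was 0.145 within a batch and -0.197 across batches. The main fit had no batch term, and fits with one are among the alternatives. CPM are UMIs per 1000000 UMIs of the class. Shares of nuclei were compared by exact permutation after thinning each nucleus to 1000 UMIs. All 10 members are named, with the 3 genes most like Gfap, Vim and Serpina3n and the 2 genes of smallest p in each list. The members and lists were chosen with earlier results of these data known. Library totals of 25466033 to 100529717 UMIs limit the rarest genes, and intervals and floors cover counting error only.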

Additional observations from a re-analysis of the deposited data

Results flagged for a closer look

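Among 29 sets of 4 ANGPT2 AAV libraries examined, 3 had 1 library far from the rest; the gap to the nearest library passed Dixon's critical value. Chance alone gives about 1 such set in 20 for independent values, and these sets share libraries. Serpina3n in telencephalic astrocytes was at 31.4 CPM in the ANGPT2 AAV female of batch 2, against 4.17 to 4.94 CPM in the other 3 ANGPT2 AAV libraries. The share of astrocyte nuclei with an Osmr UMI at 1000 UMIs per nucleus was 4.11% in the same library, against 1.55% to 1.65% in the others. The share with an Aspg UMI was 1.65% in the ANGPT2 AAV female of batch 1, against 0.662% to 0.821% in the others. These Aspg shares rest on 7 nuclei, against 3, 2 and 4 in the others, and the measure takes no account of counting error. The Control AAV groups, with 3 libraries each, were not examined by it.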

How the results depend on the processing

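Of the 286 fits of a class under a setting, 3 called a member, all with no filter on low counts: Vim and Gfap in astrocytes, these and S1pr3 in telencephalic astrocytes, and Serpina3n in oligodendrocytes. The count of genes called, 0 in every class as reported, became with no filter 47 in astrocytes, 33 in telencephalic and 11 in other astrocytes, 13 in OPC, 10 in choroid plexus, 4 in committed precursors, 6 in endothelial and 6 in ependymal cells, 3 in fibroblasts, 34 in inhibitory and 52 in medium spiny neurons, 48 in microglia and 30 in oligodendrocytes. DESeq2 called 27 in inhibitory and 8 in medium spiny neurons and 2 in whole libraries. The sex term gave 1 in OPC and 3 in microglia. The replicate block (the labelled batch) gave 1 in committed precursors and 2 in medium spiny neurons, and left Gfap at -0.997 and Vim at -1.23 in astrocytes. The block with sex gave 2 in astrocytes (Fkbp5 and Sulf1), 1 in telencephalic astrocytes (Fkbp5), 2 in OPC, 2 in committed precursors, 1 in endothelial cells and 6 in microglia. Neither block changed another count. Leaving out each library gave 0 to 2 in OPC, 0 to 5 in ependymal cells, 0 to 1 in inhibitory neurons, 0 to 16 in medium spiny neurons, 0 to 2 in microglia and 0 to 1 in other astrocytes. Over the same leave-outs, log2 changes in astrocytes ran from -1.92 to 0.78 for Vim, -1.35 to 0.73 for Cd44, -1.44 to 0.0085 for Gfap, -2.04 to 0.27 for Serpina3n and -1.45 to 0.020 for Osmr. In telencephalic astrocytes they ran from -2.18 to 0.55 for Vim, -1.66 to 0.70 for Cd44, -1.69 to 0.010 for Gfap and -2.11 to 0.32 for Serpina3n. In whole libraries they ran from -1.11 to -0.018 for Gfap, -0.57 to 0.67 for Vim, -0.52 to 0.52 for Cd44, -0.11 to 0.22 for Cp, -0.25 to 0.28 for S1pr3 and -0.34 to 0.44 for Osmr. Thinned shares ran from -2.95 to 0.391 points for Vim and -1.80 to 0.262 for Cd44, and the astrocyte share from -0.481 to 1.70 points. In whole libraries the near-zero changes also turned sign: Cp to -0.048 with totals only, S1pr3 to -0.047 with totals only, -0.045 with the block, -0.076 with sex, -0.17 with both and -0.049 with doublets kept, and Osmr to -0.024 with sex and -0.12 with both. Thinning to 2000 UMIs gave 0.221 points for Cd44 and 0.849 for S1pr3. The cause was not tested. Lymphocytes and neuroblasts had too few libraries for a fit, and choroid plexus had 4. Steap4, Lcn2, Cp and S1pr3 were limited by depth in astrocytes.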
